A study of Oryza sativa with 6 samples.

Results

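The genes described here encode the seed storage proteins of rice and their close relatives: glutelins, prolamins, globulins, seed allergens and amylase inhibitors. They were selected by their deposited annotation, in which the best hit in the nr or the Swiss-Prot protein database had to contain glutelin, prolamin, globulin, vicilin, seed allergenic protein or alpha-amylase/trypsin inhibitor. Of 61955 genes in the table, 60 met this criterion. The tested line NIL-D is labelled with the genotype CMP-/- and carries the giant embryo allele of GE from the cultivar Dapeimi. The line NIL-X is labelled as wild type and carries the same segment from the other parent of the cross, which has a normal embryo. Both are near-isogenic lines from one cross, fixed by repeated selfing, so they share most of their genome, and each line stands for 1 genotype. Messenger RNA was sequenced from hand-dissected embryos at 15 days after flowering in 3 samples per line, grown in 3 field plots that held both lines. The labels do not say which plot a replicate number stands for, so the p-values below measure the spread between these samples.

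Rice seeds store nitrogen in several kinds of protein. Glutelins are 11S-type globulins that rice makes in the starchy endosperm, where they are cut into acidic and basic chains inside protein storage vacuoles. Prolamins stay in the endoplasmic reticulum of endosperm cells as dense protein bodies. The embryo and the aleurone layer hold vicilin-like 7S globulins instead, which share the cupin fold with the 11S proteins. The seed allergens and the related inhibitors of alpha-amylase and trypsin are small sulfur-rich albumins of the endosperm. At this stage, the endosperm lies against the inner face of the embryo.

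Expression was deposited as TPM, a unit for transcript abundance that scales each gene for its length and each sample to the same total. TPM values hold no read counts, so the depth behind a value is unknown. The lines were compared with limma on log2(TPM + 1) over the 21500 genes whose mean reached 0.5 TPM, and the p-values were adjusted by the Benjamini-Hochberg method over all of them. A call needed both an adjusted p-value below 0.05 and a log2 fold change of 1 or more in either direction. Every fold change below, and every count of genes higher or lower, is NIL-D over NIL-X on this scale, which understates changes of genes with low values. Of all tested genes, 138 were called (0.642%), 57 higher and 81 lower in NIL-D, and median-ratio rescaling turned this split into 75 higher and 61 lower. All tested genes together had a median log2 fold change of −0.15, and this rescaling removed it, so small differences of the members are read against −0.15. The gene with the number given for GE, OsZS_07G0416900, had 0.1, 0.13 and 0.14 TPM in NIL-D against 0.09, 0.04 and 0.68 TPM in NIL-X. These values overlapped and lay below the minimum for testing, so GE gave no check of the labels. Embryo markers (oleosins, embryonic abundant protein and others) summed to 4.64% to 5.41% of all TPM in NIL-D and 5.45% to 5.88% in NIL-X. The gap between the means of these sums was smaller than that of embryonic abundant protein 1 alone. Genes of chlorophyll-binding proteins, markers of green maternal tissue, summed to 4.34 to 5.53 TPM in NIL-D and 9.65 to 11.15 TPM in NIL-X.

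No storage protein gene met the criteria for a call between the lines. Of the 60 members, 52 reached the minimum for testing, 8 did not, and 2 of these 8 were listed at 0 in every sample. With limma, 0 of the 52 were called, beside 0.642% of all tested genes, and the lowest adjusted p-value was 0.174. An unadjusted p below 0.05 was found for 15 of the 52 members (28.8%), beside 15.6% of all tested genes. The members' median log2 fold change was −0.39, beside −0.15 for all genes. By direction, 33 members had a lower mean in NIL-D and 19 a higher one, and 69.9% of all tested genes were lower. The values of the lines did not overlap for 14 members, 8 lower and 6 higher in NIL-D, beside 24.3% of all genes in either direction, 19.7% lower and 4.53% higher in NIL-D.

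The members fell into classes that did not move alike. The embryo-abundant 7S and 11S globulins had equal or higher levels in NIL-D. Glutelins and most prolamins had less transcript in NIL-D by their sums (0.475 and 0.467 of the NIL-X means), within wide replicate spread. A group of prolamins with the shared best hit PPROL 14E had another order of samples. The allergens and the 19 kDa globulin lay between. The plot of class sums shows these patterns by sample.

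**Figure D1:**
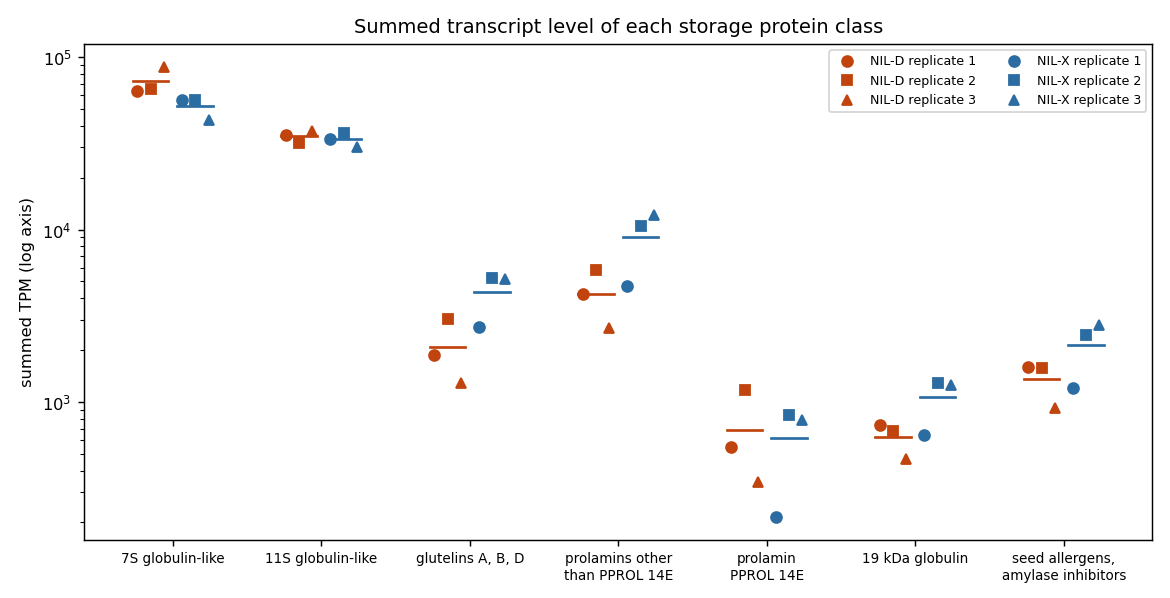
Summed TPM (log axis) of 7 storage protein classes in each of the 6 embryo samples, with NIL-D in orange and NIL-X in blue and a line at each mean. In glutelins and most prolamins NIL-D replicate 3 is the lowest sample and NIL-X replicate 1 lies well below the other NIL-X samples, while the lowest 7S sum of NIL-D (63600 TPM) is above the highest of NIL-X (56732 TPM).

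The most abundant members were cupin globulins. OsZS_08G0025200 ranked 1 among all genes by mean TPM. Its nr hit is named glutelin type-A 1-like and its Swiss-Prot hit is Cocosin 1, the 11S globulin of coconut, and by the Swiss-Prot name it was kept apart from the glutelins below, a choice made after the values had been seen. It had 35282, 31652 and 37484 TPM in NIL-D against 33698, 36126 and 30189 TPM in NIL-X. These values overlapped fully, with a log2 fold change of 0.06 (95% interval −1.09 to 1.22), which turned to −0.12 under quantile normalization. OsZS_03G0454000, a 63 kDa globulin-like protein, ranked 2 and had 30550, 29100 and 41113 TPM in NIL-D against 27262, 28160 and 20562 TPM in NIL-X. OsZS_03G0567500, annotated as Cupincin, a cupin protein of rice bran, ranked 4 and had 24391, 28076 and 39509 TPM in NIL-D against 22301, 21562 and 16124 TPM in NIL-X. In both genes every NIL-D value was above every NIL-X value, with NIL-D replicate 3 the highest and NIL-X replicate 3 the lowest of the 6 samples. The log2 fold changes were 0.40 ± 0.48 for OsZS_03G0454000 and 0.60 ± 0.47 for OsZS_03G0567500 (± SE), with adjusted p-values of 0.706 and 0.559 by limma. Quantile normalization lowered them to 0.08 for OsZS_03G0454000 and 0.22 for OsZS_03G0567500.

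The other abundant 7S members were vicilin-like proteins named after Arabidopsis genes. OsZS_03G0085900, which ranked 11, had 6839, 5996 and 5284 TPM in NIL-D against 5016, 5074 and 4775 TPM in NIL-X, again without overlap (log2 fold change 0.28, adjusted p = 0.624 by limma). OsZS_03G0210600, which ranked 47, had 1821, 2036 and 2388 TPM in NIL-D and 1951, 1936 and 1775 TPM in NIL-X, with overlap. Thus 4 of the 4 tested 7S members had a higher mean in NIL-D, and 3 of them did not overlap, beside 4.53% of all genes that were higher in NIL-D without overlap. The other matches of this class, OsZS_08G0140700 and OsZS_03G0210500, stayed under the minimum.

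Summed over the 7S class, NIL-D held 63600, 65209 and 88293 TPM against 56529, 56732 and 43236 TPM in NIL-X, a ratio of the means of 1.39. Together with the 11S globulin-like genes, the sum was 9.89%, 9.69% and 12.58% of all TPM in NIL-D and 9.02%, 9.29% and 7.34% in NIL-X. Between 3 and 4 of the 10 most highly expressed genes of each sample were members. The 7S ratio stayed between 1.23 and 1.47 when each sample was left out in turn.

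**Figure D2:**
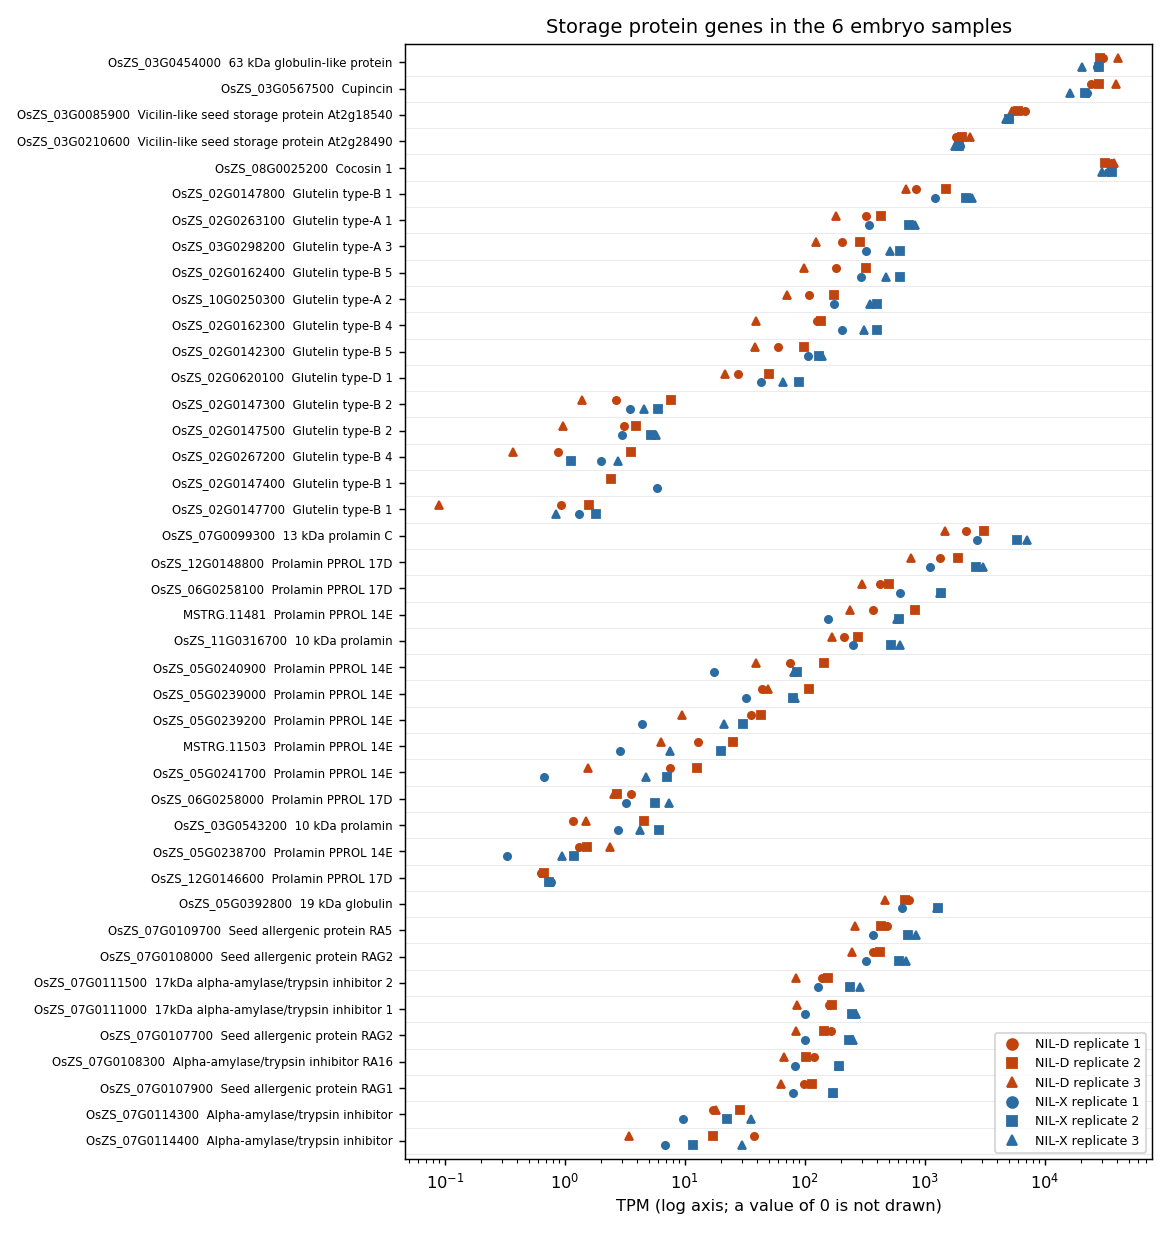
TPM (log axis) of each tested globulin, glutelin, prolamin, allergen and inhibitor gene in NIL-D (orange, upper row of each gene) and NIL-X (blue, lower row). The 3 most abundant cupin globulins lie above all other plotted genes in every sample, and the glutelins with an A, B or D hit span from values near 0 to 2464 TPM.

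Genes whose Swiss-Prot hit is a glutelin of type A, B or D were less abundant than the leading cupin globulins in these embryos. All 13 tested genes of this kind had a lower mean in NIL-D, with a median log2 fold change of −0.999, beside −0.15 for all genes and 69.9% of all genes lower. Their sum was 1884, 3045 and 1281 TPM in NIL-D against 2718, 5209 and 5154 TPM in NIL-X, which gave means of 2070 ± 897 TPM for NIL-D and 4360 ± 1422 TPM for NIL-X (SD, n = 3 each). The ratio of the means was 0.475, and NIL-D replicate 2 lay above NIL-X replicate 1, so the sums overlapped. Without NIL-D replicate 3, 11 of the 13 genes were lower and the median was −0.70. In such bulk samples, fewer cells of a type and less RNA per cell cannot be told apart.

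The main glutelin gene was OsZS_02G0147800, glutelin type-B 1, with 845, 1515 and 703 TPM in NIL-D against 1214, 2206 and 2464 TPM in NIL-X. The lines overlapped through NIL-D replicate 2 and NIL-X replicate 1 (log2 fold change −0.96 ± 0.39 SE, adjusted p = 0.312 by limma). OsZS_02G0263100, glutelin type-A 1, had 322, 435 and 183 TPM in NIL-D and 345, 734 and 825 TPM in NIL-X, and overlapped in the same samples (log2 fold change −1.01, adjusted p = 0.327 by limma). OsZS_03G0298200, glutelin type-A 3, had 206, 291 and 123 TPM in NIL-D against 324, 618 and 513 TPM in NIL-X. Here every NIL-D value lay below every NIL-X value, with a log2 fold change of −1.26 ± 0.37 SE and an adjusted p-value of 0.212 by limma.

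Among glutelin B genes, OsZS_02G0162300, type-B 4, showed the lowest fold change of all members. It had 127, 137 and 38.9 TPM in NIL-D against 203, 400 and 308 TPM in NIL-X, without overlap (log2 fold change −1.72 ± 0.51 SE, adjusted p = 0.215 by limma). Its neighbour by gene number, OsZS_02G0162400, type-B 5, had 181, 324 and 98.2 TPM in NIL-D and 291, 620 and 478 TPM in NIL-X, where NIL-D replicate 2 exceeded NIL-X replicate 1 (log2 fold change −1.30). The third gene without overlap was OsZS_02G0142300, also type-B 5, with 59.3, 98.5 and 38.3 TPM in NIL-D against 106, 131 and 139 TPM in NIL-X (log2 fold change −1.02).

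Some glutelin matches may not be plain glutelin genes. OsZS_10G0250300 carries the hit glutelin type-A 2 but only pentatricopeptide repeat domains in its model of 3818 bp, and it had 109, 175 and 71.2 TPM in NIL-D and 175, 398 and 348 TPM in NIL-X (log2 fold change −1.37). OsZS_02G0620100, type-D 1, has an added RING domain, and OsZS_02G0147500, type-B 2, an added retrotransposon domain. The remaining tested glutelin genes stayed at or under 7.6 TPM in every sample. Many lie in a run of neighbouring gene numbers on chromosome 2, which held 11 of the 17 genes of the glutelin and 11S class, and how the reads of related copies were divided among them is uncertain.

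The same samples were high and low across the glutelins. NIL-D replicate 3 was the lowest of the 6 samples in 12 of 13 genes, beside 42.8% of all tested genes. NIL-X replicate 1 was the lowest NIL-X sample in 10 of 13, beside 21.5% of all genes. Within NIL-D, replicate 2 was the highest in all 13. Glutelin type-B 1 made up 42.4% to 54.9% of the glutelin sum in every sample.

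Prolamins split into a pair of groups by their annotation and their pattern. This split was made after the values had been seen, so the shared direction within each group is in part a product of it. Undivided, the 14 tested prolamin genes were 7 lower and 7 higher in NIL-D, with a median log2 fold change of −0.14. The 7 prolamin genes other than PPROL 14E all had a lower mean in NIL-D, beside 69.9% of all tested genes, with a median log2 fold change of −0.74. Their sum was 4218, 5816 and 2698 TPM in NIL-D against 4710, 10480 and 12082 TPM in NIL-X, a ratio of the means of 0.467, with overlap between NIL-D replicate 2 and NIL-X replicate 1.

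OsZS_07G0099300, the 13 kDa prolamin C, was the most abundant prolamin gene and also the most abundant endosperm-type member. It had 2224, 3139 and 1462 TPM in NIL-D against 2725, 5918 and 7050 TPM in NIL-X (log2 fold change −1.16 ± 0.46 SE, adjusted p = 0.304 by limma). OsZS_12G0148800, annotated as PPROL 17D, had 1350, 1883 and 764 TPM in NIL-D and 1104, 2649 and 3067 TPM in NIL-X, with 2 NIL-D samples above NIL-X replicate 1. OsZS_06G0258100, a second PPROL 17D gene, had 426, 507 and 298 TPM in NIL-D against 621, 1377 and 1333 TPM in NIL-X. It did not overlap and had the lowest adjusted p-value of the prolamins, 0.182 by limma, at a log2 fold change of −1.38 ± 0.36 SE. OsZS_11G0316700, the 10 kDa prolamin, which is rich in sulfur amino acids, had 213, 280 and 170 TPM in NIL-D and 254, 524 and 620 TPM in NIL-X (log2 fold change −1.01).

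The PPROL 14E group comprised 9 genes with the same best hit, of which 7 were tested. Most lie on chromosome 5, and how reads were divided among genes with one shared hit is uncertain. All 7 had a higher mean log2 value in NIL-D, beside 30.1% of all tested genes, a count that the split by pattern favours. Their log2 fold changes lay between 0.04 and 0.72, with a median of 0.60. MSTRG.11481, a gene added by the authors' assembly, held 67.8% to 74.8% of the group's sum. It had 372, 834 and 237 TPM in NIL-D and 157, 614 and 589 TPM in NIL-X (log2 fold change 0.12, adjusted p = 0.942 by limma), with full overlap.

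The direction of this group rested on single samples. OsZS_05G0240900 had 75.9, 145 and 39.0 TPM in NIL-D and 17.4, 86.2 and 81.3 TPM in NIL-X, and NIL-X replicate 1 was the lowest of the 6 samples in all 7 genes. Without that sample, 5 of the 7 were lower in NIL-D and 2 higher, and the median log2 fold change was −0.05. Without NIL-D replicate 2, 2 were lower and 5 higher, and the median was 0.13. The sum was 549, 1169 and 345 TPM in NIL-D against 214, 839 and 787 TPM in NIL-X, with a ratio of the means of 1.12 over all samples and 0.846 without NIL-X replicate 1. OsZS_05G0238700, at 1.31, 1.53 and 2.4 TPM in NIL-D and 0.33, 1.2 and 0.95 TPM in NIL-X, was the member of the group without overlap (log2 fold change 0.60, adjusted p = 0.342 by limma).

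**Figure D3:**
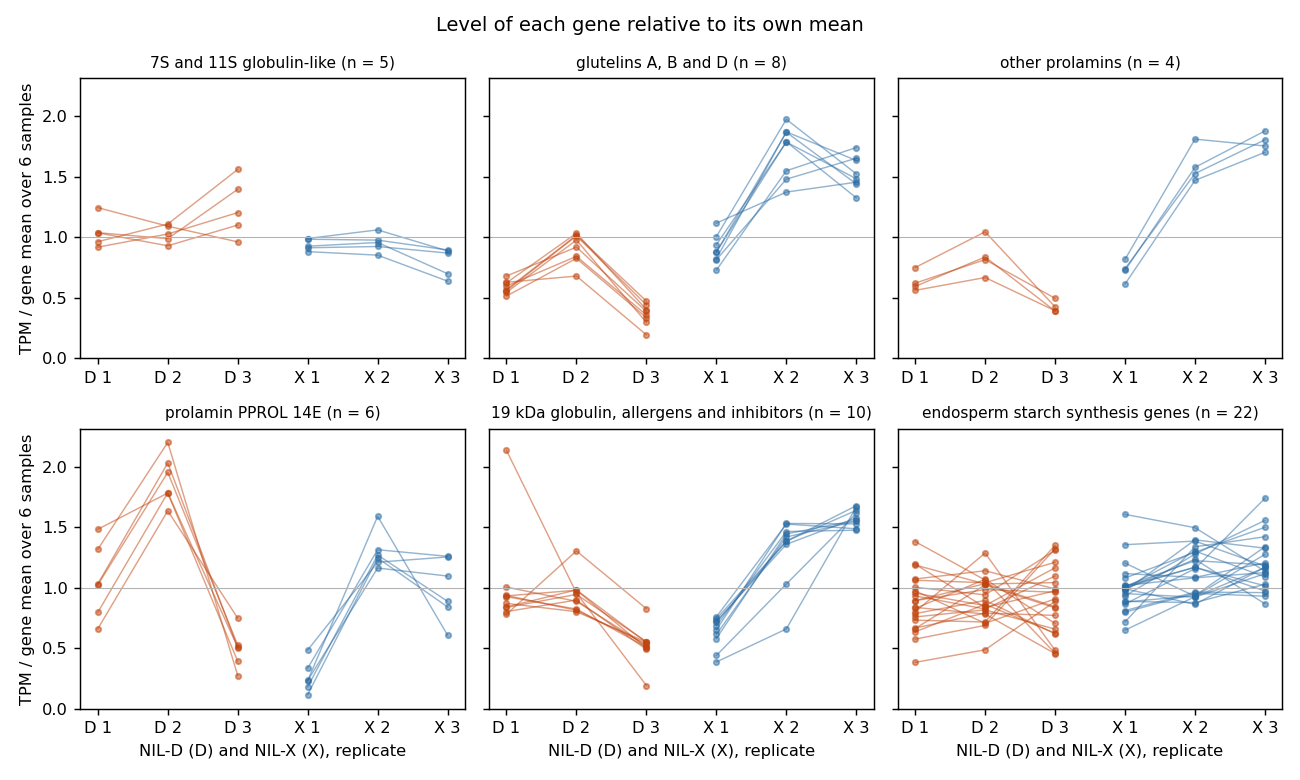
TPM of each gene with a mean of at least 5 TPM divided by its own mean over the 6 samples, for NIL-D (orange) and NIL-X (blue), with lines joining the values of one gene within a line. Glutelins and the prolamins other than PPROL 14E are low in NIL-D replicate 3 and high in NIL-X replicates 2 and 3, PPROL 14E is lowest in NIL-X replicate 1, and the starch synthesis genes vary less.

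Set against the other prolamins of the same sample, PPROL 14E separated the lines. Such a ratio within a sample does not change when all values of the sample are divided by a common factor. Quantile normalization can change it. The PPROL 14E sum was 13.0%, 20.1% and 12.8% of the sum of the other prolamins in NIL-D and 4.55%, 8.01% and 6.52% in NIL-X, that is 15.3% ± 4.16 in NIL-D and 6.36% ± 1.73 in NIL-X (SD, n = 3 each). Every NIL-D ratio was above every NIL-X ratio, also for the leading genes alone, where MSTRG.11481 was 16.7%, 26.6% and 16.2% of OsZS_07G0099300 in NIL-D and 5.75%, 10.4% and 8.35% in NIL-X. This ratio was chosen after the values had been seen and is given as a description.

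Against the 13 kDa prolamin C gene, 6 of 7 PPROL 14E genes and 8 of 9 allergen and inhibitor genes had a higher ratio in NIL-D without overlap, beside 18.7% of all tested genes. Of the 13 glutelin genes 0 did, and of the 6 remaining prolamin genes 1 did. The prolamin split and this reference gene were also chosen after the values had been seen. The reference gene itself had a lower mean in NIL-D (log2 fold change −1.16), which raises such ratios. These counts are therefore given as a description. The allergen and inhibitor sum was 37.6%, 27.2% and 34.1% of the other prolamins in NIL-D and 25.5%, 23.3% and 23.1% in NIL-X. Glutelins ran with the prolamins, at 44.7%, 52.4% and 47.5% in NIL-D and 57.7%, 49.7% and 42.7% in NIL-X, which overlapped.

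**Figure D4:**
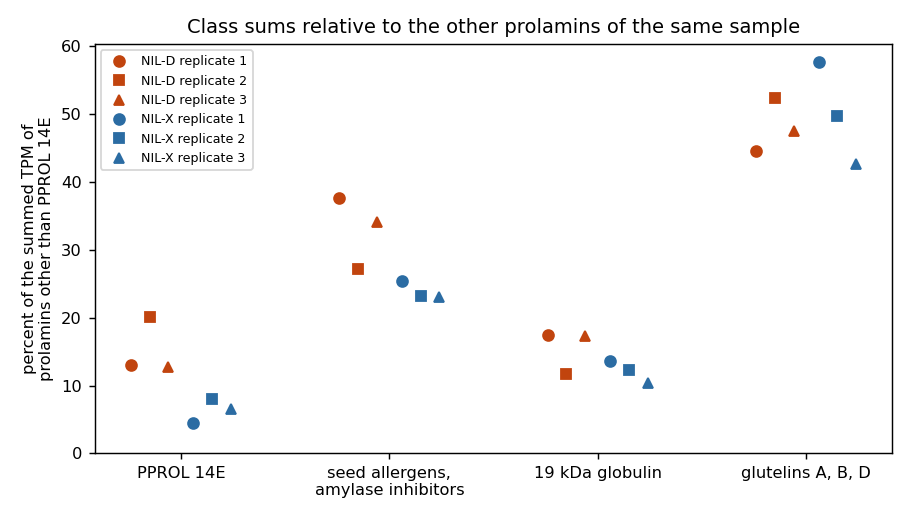
Class sums as a percentage of the summed TPM of the prolamins other than PPROL 14E in the same sample, for NIL-D (orange) and NIL-X (blue). PPROL 14E and the allergens and inhibitors lie higher in all NIL-D samples than in all NIL-X samples, and the 19 kDa globulin and the glutelins overlap.

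The 19 kDa globulin gene OsZS_05G0392800 encodes the alpha-globulin of rice endosperm, which is stored in the vacuole beside the glutelins. It had 739, 681 and 467 TPM in NIL-D and 644, 1295 and 1262 TPM in NIL-X. NIL-X replicate 1 lay inside the NIL-D range, and the log2 fold change was −0.72 ± 0.33 SE (adjusted p = 0.349 by limma).

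The 9 allergen and inhibitor genes all lie on chromosome 7 under nearby gene numbers. Of these, 7 had a lower mean log2 value in NIL-D and 2 a higher one, beside 69.9% of all tested genes lower. Their median log2 fold change was −0.56, with adjusted p-values of 0.362 and above by limma. OsZS_07G0109700, which encodes the seed allergen RA5, had 480, 427 and 264 TPM in NIL-D and 370, 718 and 850 TPM in NIL-X. OsZS_07G0108000, which encodes RAG2, had 373, 421 and 247 TPM in NIL-D and 322, 606 and 703 TPM in NIL-X. In both genes NIL-X replicate 1 fell within the NIL-D range and NIL-X replicates 2 and 3 were the highest samples.

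NIL-D replicate 3 was the lowest of the 6 samples in 8 of the 9 genes, beside 42.8% of all tested genes. OsZS_07G0111500, the 17 kDa alpha-amylase/trypsin inhibitor 2, had 139, 155 and 84.7 TPM in NIL-D and 128, 239 and 289 TPM in NIL-X (log2 fold change −0.76). OsZS_07G0111000, inhibitor 1, had 160, 168 and 85.9 TPM in NIL-D and 99.5, 248 and 267 TPM in NIL-X (log2 fold change −0.50). The remaining matches, OsZS_07G0107700 (RAG2), OsZS_07G0108300 (RA16) and OsZS_07G0107900 (RAG1), had log2 fold changes of −0.51, −0.63 and −0.56, while OsZS_07G0114300 and OsZS_07G0114400 lay at 0.05 and 0.00. NIL-X replicate 1 was the lowest NIL-X sample in all 9 genes, beside 21.5% of all tested genes.

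Glutelins, prolamins, the 19 kDa globulin and the allergens, 40 genes of which 37 were tested, were also summed as one group. Of these 37, 28 were lower and 9 higher in NIL-D, beside 69.9% of all tested genes lower. Their median log2 fold change was −0.63, beside −0.15 for all tested genes. Their sum was 8978, 12290 and 5711 TPM in NIL-D and 9486, 20264 and 22079 TPM in NIL-X. NIL-X replicate 1 thus held 0.448 of the mean of the other NIL-X samples and lay within the NIL-D range. It was the lowest NIL-X sample in 33 of the 37 genes, beside 21.5% of all tested genes. In 32 it was at or under 0.7 of the mean of the other NIL-X samples, beside 10.1% of all tested genes. NIL-D replicate 3 was the lowest of all samples in 27, beside 42.8% of all tested genes. The ratio of the means was 0.52 over all samples and 0.425 without NIL-X replicate 1. Without that sample 34 of 36 genes were lower and the median was −0.95, and without NIL-D replicate 3 26 of 37 were lower and the median was −0.38. None was called in either case.

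Starch synthesis genes, some of whose products work in the endosperm, had sums that varied less between samples. The list was matched by annotation and held isoforms beyond the planned endosperm markers, among them granule-bound starch synthase 1b and isoamylase 3. Of its 28 genes, 22 were tested, while 4 were at 0 in every sample. Its sum was 1847, 2036 and 2161 TPM in NIL-D against 2090, 2565 and 2748 TPM in NIL-X, and 18 of 22 were lower in NIL-D, beside 69.9% of all genes, 0 called, with a median log2 fold change of −0.31. OsZS_06G0028800, granule-bound starch synthase 1, the enzyme of amylose synthesis, had 201, 311 and 253 TPM in NIL-D and 218, 406 and 432 TPM in NIL-X. NIL-X replicate 1 was again below the other NIL-X samples. Without overlap, 7 of the 22 were lower in NIL-D and 2 higher, beside 19.7% and 4.53% of all genes. The large subunit 3 of glucose-1-phosphate adenylyltransferase, OsZS_05G0466700, and the branching enzyme 2, OsZS_04G0305200, differed by log2 fold changes of −0.25 and −0.14. Another branching enzyme 2, OsZS_02G0341900, had 108, 129 and 125 TPM in NIL-D against 152, 208 and 253 TPM in NIL-X. Large subunit 2, OsZS_01G0418400 (mean 76.7 against 129 TPM), and isoamylase 1, OsZS_08G0437500 (31.0 against 49.8 TPM), were also lower in NIL-D without overlap. Other planned endosperm markers overlapped between the lines. Small subunit 2, OsZS_08G0256700, averaged 172 TPM in NIL-D against 191 TPM in NIL-X. Pullulanase, OsZS_04G0067900, averaged 24.5 against 32.7 TPM. Soluble starch synthase 2-3, OsZS_06G0113400, had a higher mean in NIL-D (26.85 against 22.63 TPM). Soluble starch synthase 1, OsZS_06G0052900, and isoamylase 2, OsZS_05G0305000, were higher without overlap. Starting with OsZS_02G0341900, these genes were picked after their values had been seen. The branching enzyme OsZS_06G0469600 had 108, 146 and 106 TPM in NIL-D against 183, 219 and 254 TPM in NIL-X without overlap (log2 fold change −0.87, adjusted p = 0.130 by limma), and was picked after its values had been seen. Whether the amount of endosperm in the samples had a part in the storage protein values was not tested.

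Embryo markers had log2 fold changes on both sides of 0, from −1.41 to 0.64, while their sum was lower in every NIL-D sample than in every NIL-X sample. Of 13 tested genes on that list, 8 were lower and 5 higher in NIL-D, beside 69.9% of all tested genes lower. Of these 13, 0 were called, and the median log2 fold change was −0.07. Oleosin 16 kDa, OsZS_04G0421400, a coat protein of oil bodies, had 25190, 25764 and 20547 TPM in NIL-D and 22698, 25091 and 21783 TPM in NIL-X, and oleosin 18 kDa, OsZS_03G0484400, had a log2 fold change of −0.01. The embryonic abundant protein 1, OsZS_05G0257500, had 6101, 7782 and 9934 TPM in NIL-D against 14936, 15257 and 13030 TPM in NIL-X, without overlap (log2 fold change −0.88, adjusted p = 0.306 by limma). Another oleosin, OsZS_09G0139500, picked after its values had been seen, was higher in NIL-D without overlap. It had 1777, 1722 and 1256 TPM in NIL-D against 941, 961 and 1114 TPM in NIL-X. Of the 13 chlorophyll-binding genes, 3 were tested and 0 called, with log2 fold changes of −0.10 for OsZS_09G0114000, −1.38 for OsZS_07G0377000 and −0.74 for OsZS_04G0343700.

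Some members met the annotation criterion only through another name of the protein and are not storage proteins. GPA3, Rab5A and VPS9A act in the sorting of glutelin precursors towards the storage vacuole, and DOF3 is a transcription factor of endosperm that acts on storage protein genes. GPA3, OsZS_03G0603300, had 17.7, 18.9 and 17.9 TPM in NIL-D against 26.2, 24.3 and 24.7 TPM in NIL-X, a difference without overlap and with little spread (log2 fold change −0.44 ± 0.11 SE). Its adjusted p-value of 0.174 by limma was the lowest of all members. DOF3, OsZS_02G0149500, had 10.3, 13.3 and 10.4 TPM in NIL-D against 14.9, 21.7 and 29.8 TPM in NIL-X, also without overlap (log2 fold change −0.86, adjusted p = 0.214 by limma).

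The guanine nucleotide exchange factor VPS9A, OsZS_03G0147100, had 13.3, 14.1 and 14.3 TPM in NIL-D and 17.7, 15.0 and 15.5 TPM in NIL-X (log2 fold change −0.20). Rab5A, OsZS_12G0396200, the small GTPase that VPS9A activates, had 50.6, 47.0 and 118 TPM in NIL-D and 77.0, 72.5 and 89.9 TPM in NIL-X. NIL-D replicate 3 was the highest sample here, and without it the log2 fold change was −0.69 with an adjusted p-value of 0.0376 by limma, under the fold change limit for a call.

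Regulators and helpers of storage protein synthesis from separate lists were not called either. Of 9 transcription factor genes, DOF3 among them, 6 were lower and 3 higher in NIL-D, beside 69.9% of all tested genes lower. Their median log2 fold change was −0.32. VP1, OsZS_01G0659800, a B3 factor of seed maturation, had 171, 190 and 214 TPM in NIL-D and 199, 200 and 208 TPM in NIL-X. LFL1, OsZS_01G0485300, and RISBZ4, OsZS_02G0072900, had log2 fold changes of 0.02 and −0.38. RISBZ1, OsZS_07G0076100, the bZIP partner of DOF3 on endosperm promoters, was picked after its values had been seen and had 2.48, 5.23 and 3.05 TPM in NIL-D and 4.98, 7.53 and 9.29 TPM in NIL-X (log2 fold change −0.86, adjusted p = 0.264 by limma). RISBZ2, OsZS_03G0570200, also picked later, went the other way without overlap. It had 10.95, 10.6 and 12.99 TPM in NIL-D against 9.38, 8.68 and 10.2 TPM in NIL-X.

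In the list of folding and sorting factors, 35 of 50 genes were tested, Rab5A and VPS9A among them. Of these, 28 were lower in NIL-D and 7 higher, beside 69.9% of all genes lower. The median log2 fold change was −0.29, beside −0.15 for all tested genes. Without overlap, 13 were lower and 2 higher in NIL-D, beside 19.7% and 4.53% of all genes. The chaperone BIP1, OsZS_02G0014500, which retains prolamins in the endoplasmic reticulum, had 312, 196 and 341 TPM in NIL-D against 556, 370 and 489 TPM in NIL-X, without overlap (log2 fold change −0.75, adjusted p = 0.264 by limma). The disulfide isomerase PDIL1-1, OsZS_11G0083900, which folds proglutelin, had a log2 fold change of 0.08. The vacuolar processing enzyme, OsZS_02G0450600, which cleaves it, had a log2 fold change of 0.10.

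The last members were relatives by domain. Basic 7S globulins (gamma conglutin of lupin) are built like aspartic proteases and include inhibitors of cell wall xylanases. OsZS_05G0313400 had 32.3, 12.8 and 15.6 TPM in NIL-D and 4.9, 3.88 and 13.8 TPM in NIL-X, with the highest fold change of all members (log2 fold change 1.39 ± 0.50 SE, adjusted p = 0.275 by limma), and NIL-X replicate 3 fell into the NIL-D range. OsZS_05G0312700 had 9.55, 5.89 and 8.18 TPM in NIL-D against 3.87, 3.86 and 5.62 TPM in NIL-X, without overlap (log2 fold change 0.70). The third gene of this run on chromosome 5, OsZS_05G0313100, had 3.03, 0.95 and 7.66 TPM in NIL-D and 1.22, 0.23 and 5.09 TPM in NIL-X. OsZS_01G0682900, with a chitinase-like hit, stayed at or under 1.08 TPM.

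Of the thaumatin-like genes, which resemble the antifungal zeamatin of maize, OsZS_03G0452300 had 2.37, 2.07 and 6.18 TPM in NIL-D against 1.43, 1.3 and 0.25 TPM in NIL-X. The lines did not overlap (log2 fold change 1.14 ± 0.42 SE, adjusted p = 0.277 by limma), with NIL-D replicate 3 far above the others. OsZS_12G0395300 lay at a log2 fold change of 0.18. The plot of fold changes places these small groups beside the storage proteins.

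**Figure D5:**
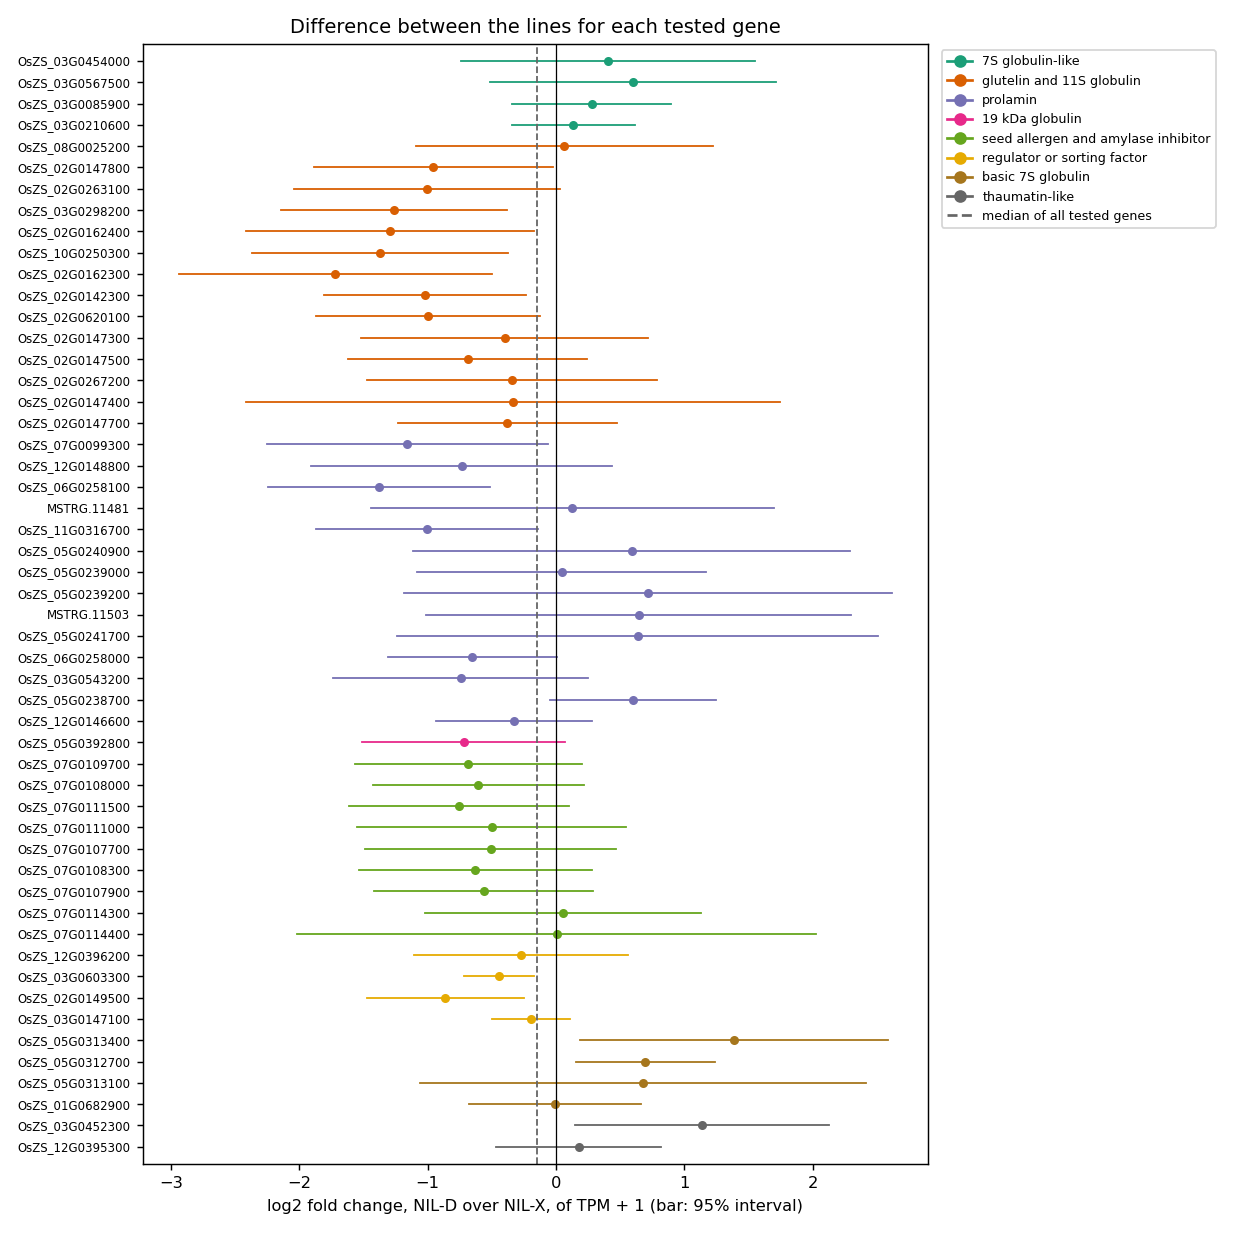
Log2 fold change of NIL-D over NIL-X with its 95% interval from limma for each of the 52 tested members, coloured by class, with a dashed line at the median of all tested genes (−0.15). All 13 tested genes with a glutelin A, B or D hit in Swiss-Prot lie left of 0. So do 28 of 37 glutelin, prolamin, 19 kDa globulin and allergen genes, beside 69.9% of all tested genes. No member met the criteria for a call.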

How the data were processed

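The deposited TPM of 3 NIL-D and 3 NIL-X embryo samples were used. According to the methods, the authors trimmed reads with SeqPrep and Sickle, mapped with TopHat to the ZS97RS3 genome (RIGW3.0), assembled with Cufflinks and quantified with RSEM. The methods name FPKM, but the authors deposited TPM, which sum to 1000000 per sample. The submitters' processing notes list Bowtie 0.12.2 and mm8, a mouse build, which does not match the rice gene names. The authors' means of TPM per line and annotation stood in further columns.

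Members and lists were chosen with earlier results of these data known, and list patterns were narrowed after the annotation was seen. limma 3.58.1 in R 4.3.3 (lmFit, eBayes with trend) was run on log2(TPM + 1) for genes whose TPM averaged 0.5 or more, and tested on simulated data. Named genes are, per class, up to 6 with the highest mean TPM, the 5 per direction with the largest fold change without overlap, and the 3 most abundant of each list. Rab5A without NIL-D replicate 3 and the genes said to be picked later are exceptions. Of the members, 26 matched a RefSeq gene of assembly ASM3414082v1, used for names only. Python 3.11.15, pandas 2.3.3 and matplotlib 3.10.9 were used for sums and plots. Alternatives were other pseudocounts, filters, scalings and variance priors, a call by the adjusted p-value alone, a replicate block and leaving out each sample.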

Additional observations from a re-analysis of the deposited data

How the results depend on the processing

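No member was called under any of the alternatives: a pseudocount of 0.1, no filter or a minimum mean of 5 TPM, rescaling by median ratios, quantile normalization, rescaling over non-members, eBayes without trend, the replicate block, the adjusted p-value alone, or leaving out each sample, except that the adjusted p-value of Rab5A passed 0.05 without NIL-D replicate 3 at a fold change under the limit. The count of members with an unadjusted p below 0.05 ran from 7 to 24. Over all genes, 138 calls became 57 with a mean TPM of at least 5, 43 with the replicate block, and 37 (without NIL-X replicate 1) to 611 (without NIL-D replicate 3) when a sample was left out. Same-numbered samples of the lines correlated in their deviations at 0.016, 0.20 and 0.20, while the other pairings ran from −0.23 to 0.059. These values do not settle whether the numbers are pairs. The labels do not tie a number to a plot, so the main fit did not take the numbers as pairs. With the block, 0 members were called. Leaving out a sample moved the members' median log2 fold change between −0.64 and −0.22. It moved the ratios of class sums between 1.23 and 1.47 for 7S globulins, 0.363 and 0.565 for glutelins A, B and D, 0.402 and 0.607 for all prolamins, 0.492 and 0.665 for the 19 kDa globulin, and 0.521 and 0.749 for allergens and inhibitors. Median-ratio rescaling moved the ratio of glutelins with 11S globulins to 1.11 and that of 11S globulin-like genes alone to 1.19.

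Directions turned in a few named genes. OsZS_08G0025200 turned to −0.12 under quantile normalization and to −0.007 without NIL-X replicate 3 (range over samples left out −0.007 to 0.129). MSTRG.11481 turned to −0.37 without NIL-D replicate 2 and −0.52 without NIL-X replicate 1 (range −0.52 to 0.53), and OsZS_05G0240900 to −0.15 without NIL-X replicate 1 (range −0.15 to 1.06). OsZS_01G0682900, at −0.01, turned to 0.074 with a pseudocount of 0.1, 0.052 under median-ratio rescaling, 0.11 under quantile normalization, 0.0018 when rescaled over non-members, and 0.12 without NIL-D replicate 2 (range −0.18 to 0.12). The cause was not tested. With 3 samples per line and unknown depth, small differences at low TPM cannot be resolved.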
